A study of Mus musculus with 12 samples.

Results

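The 55 genes described here encode the chains of the collagens (44 genes) and the laminins (11 genes). They were taken by symbol from the 31208 genes of the deposited table, as Col followed by a number, the letter a and a number, or as Lama, Lamb or Lamc followed by a digit, each under an Ensembl identifier. 1 symbol of similar form, Col4a3bp, was left out because it names a ceramide transfer protein. The brains of 12 C57BL/6 mice, male according to the methods and 8 weeks old, were sequenced as full-length cDNA on nanopores, with 4 mice in each of 3 groups. The groups were sham mice, mice with 6 h of ischemia given a vehicle (Ischemia 6 h + Veh), and mice with 6 h of ischemia given lactate (Ischemia 6 h + Lactate), and the comparisons ask how ischemia changes the transcriptome and what additional lactate does to it. Ischemia was produced by occluding the middle cerebral artery (MCAO), and lactate or saline was injected into a cerebral ventricle the day before the occlusion. The form was D-lactate according to the methods and is not named in the labels. No injection in the sham mice and no brain region for the sequenced RNA is given in the sources used here. Unless sham mice were injected too, comparisons with them hold ischemia and the injection together, and their effects cannot be told apart.

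Collagens are proteins of 3 chains wound into a triple helix. The fibrillar types form the cables of connective tissue, which in the brain is largely limited to the meninges and the sheaths of larger vessels. Type IV collagen instead forms a sheet-like network, and laminins, each built of an alpha, a beta and a gamma chain, polymerise on cell surfaces into another. The basement membrane that results surrounds brain endothelial cells and pericytes and is part of the blood-brain barrier. Type IV protomers of the composition alpha 1, alpha 1, alpha 2, encoded by Col4a1 and Col4a2, are the common form in vessels.

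Levels are given as CPM, a gene's reads scaled to the same library total in every mouse, which is not divided by gene length and is therefore compared between mice and not between genes. Total counts ranged from 6815920 to 10677224 per mouse, and 3 counts, used as the floor of detection, corresponded to 0.281 to 0.440 CPM. All 55 genes had at least 1 read in at least 1 mouse, 25 lay above 3 counts in all 12 mice, and 5 in no mouse. A gene was tested where 4 or more of the 8 mice compared had 1 CPM or above. 29 of the 55 genes passed in the comparison of vehicle with sham mice, 30 in that of lactate with sham mice and 29 in that of lactate with vehicle mice. 24 passed in no comparison and are described by their levels, with a fit that used no filter given where it made a call. Among libraries, vehicle mouse 2 stood apart in markers of choroid plexus epithelium, with a summed level of 10 markers of 1848 CPM, nearly all of it Ttr, against at most 19.0 CPM in any other mouse. Calls of members and chain ratios were also computed without this mouse.

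Col4a1 and Col4a2 lie head to head on chromosome 8 in GENCODE release 21 (GRCm38), Col4a1 on the reverse strand at chr8:11198423-11312826 and Col4a2 on the forward strand at chr8:11312805-11449287, so that their first 22 bases overlap. The 250 bases before each start were searched, on both strands, for the CCAAT box (CCAAT or ATTGG), the TATA box (TATAAA or TTTATA), the GC box (GGGCGG or CCGCCC) and the core of the hypoxia response element (ACGTG or CACGT). The CCAAT box was found in both promoters, the GC box in that of Col4a2, and TATAAA and ACGTG in neither, which says only that these letters are not in the windows searched. The shared start and the CCAAT boxes are shown because Col4a1 carries the main change below and Col4a2 is its partner chain. The sequences are from RefSeq on GRCm38.p6, 5′ to 3′ on the strand named, with the motif in capitals. The first is the overlap at chr8:11312805-11312826 on the forward strand, which itself holds a GC box. The second lies 145 bases before the start of Col4a1, at chr8:11312954-11312983 on the reverse strand. The third lies 32 bases before the start of Col4a2, at chr8:11312761-11312790 on the forward strand, and no motif found overlapped another.
Shared start: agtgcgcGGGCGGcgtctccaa
Col4a1: tgcttgcccgggATTGGcgagccaaggggc
Col4a2: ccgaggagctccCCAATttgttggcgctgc

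A CCAAT box stood in 33.8% of the 32851 promoters in the RefSeq table, a GC box in 32.7%, TATAAA in 12.4% and ACGTG in 16.6%. For 40 of the 55 genes a promoter was listed, 44 promoters in all, of which 14 held the CCAAT box, 24 the GC box, 5 TATAAA and 5 ACGTG. These are letter matches and not measured sites. Of the other type IV genes, Col4a3 and Col4a4 on chromosome 1 start 71 bases apart and Col4a5 and Col4a6 on chromosome X 1308 bases apart, again head to head. Whether reads were counted by strand is not given in the sources used here, so reads from the overlapping start cannot be assigned to 1 gene with certainty.

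After 6 h of ischemia, the type IV collagen gene Col4a1 rose 3.06-fold in vehicle mice, and it was the only one of the 29 genes tested to pass the test (edgeR, adjusted p under 0.05). Its partner chain Col4a2 was 2.40-fold higher without passing. The laminins and the other collagens gave no call. The Col4a1 transcript encodes the alpha 1 chain of type IV collagen. Its level in sham mice 1 to 4 was 5.54, 3.90, 4.07 and 3.21 CPM. In vehicle mice 1 to 4 it was 17.7, 10.1, 11.5 and 10.4 CPM, and in lactate mice 1 to 4 it was 7.30, 11.5, 6.07 and 10.3 CPM. Every ischemic mouse of either group lay above the highest sham mouse, while the vehicle and lactate groups overlapped. The log2 fold change was 1.62 (SE 0.26) in vehicle against sham mice, with an adjusted p of 0.00599 in edgeR. Leaving out each mouse in turn gave 1.39 to 1.76, with a call in 8 of 8 fits, and without vehicle mouse 2 the value was 1.71.

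In vehicle against sham mice, 1 of the 29 genes tested was called higher, 3.45%, where 1.29% of all 17019 genes tested were, and 0 were called lower, where 0.182% of all were. The study states a p under 0.05 with a change of 1.5-fold or more. It also adjusted its p-values and does not say which p the limit meant. The study's limits were read here as an unadjusted p. At these limits 2 genes were higher (Col4a1 and Col4a2), 6.9% against 6.5% of all genes, and 0 were lower, where 3.01% of all were. Thus the count by the study's limits was near the share over all genes, and the count of adjusted calls rested on 1 gene. The median log2 fold change of the 29 genes was 0.00, as it was over all genes tested, and 15 were higher and 14 lower. As these are whole-tissue samples, fewer cells of a type and less RNA per cell cannot be told apart, nor more of either.

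**Figure D1:**
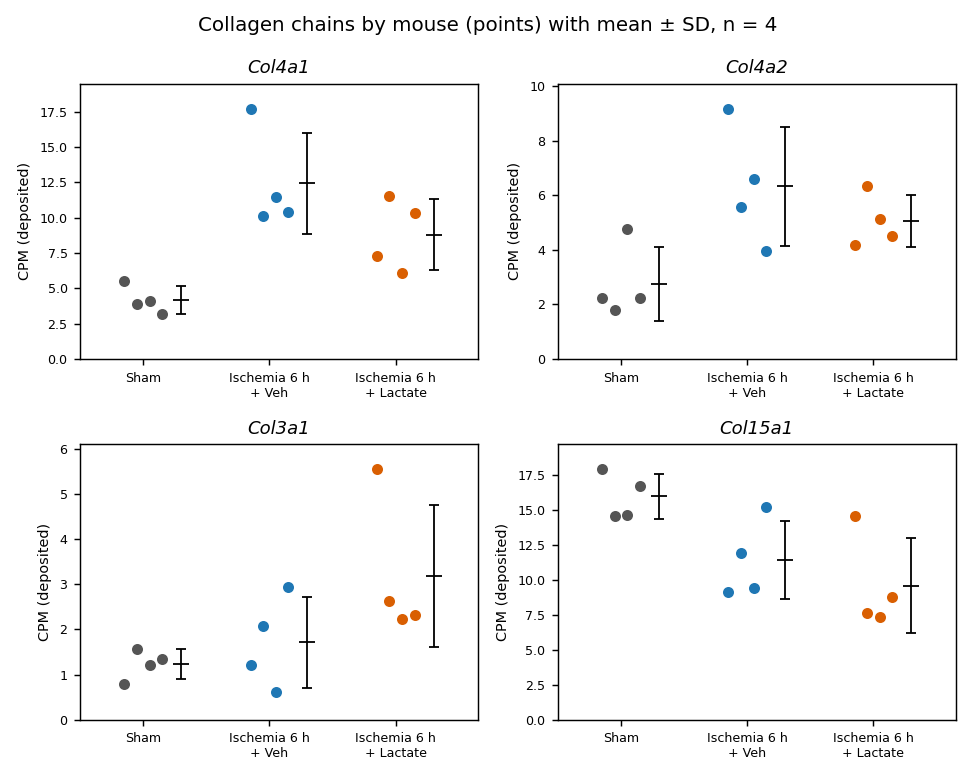
Level of Col4a1, Col4a2, Col3a1 and Col15a1 in CPM (vertical axis, from 0) in each mouse (points) of the 3 groups, with the group mean ± SD (n = 4) beside the points. All 8 ischemic mice lie above the highest sham mouse, 5.54 CPM, for Col4a1, and 1 sham mouse at 4.75 CPM reaches into the ischemic groups for Col4a2.

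Col4a2 encodes the alpha 2 chain of the same protomer. It measured 2.24, 1.78, 4.75 and 2.22 CPM in sham mice 1 to 4. It measured 9.18, 5.57, 6.60 and 3.96 CPM in vehicle mice and 4.19, 6.35, 5.14 and 4.52 CPM in lactate mice. Sham mouse 3 alone lay within the range of the ischemic mice, and the other 3 sham mice lay below all of them. The log2 fold change in vehicle against sham mice was 1.26 (SE 0.35, edgeR adjusted p = 0.123). DESeq2 gave 1.27 and an adjusted p of 0.0362, and without sham mouse 3 edgeR gave 1.64 and 0.0578.

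Since the protomer uses these chains in a fixed proportion, the ratio of Col4a1 to Col4a2 counts was computed in each mouse. It was 2.43, 2.15, 0.859 and 1.43 in sham mice, 1.92, 1.80, 1.73 and 2.60 in vehicle mice, and 1.73, 1.80, 1.18 and 2.27 in lactate mice. The 3 groups overlapped. The mean log2 ratio differed by 0.32 between vehicle and sham mice, by 0.09 between lactate and sham mice and by -0.23 between lactate and vehicle mice. None of these differed beyond the spread between mice in two-sided exact permutation tests (p = 0.486, 0.8 and 0.4, each 0.914 after adjustment over 6 tests, where 4 against 4 mice allow no p below 0.0286). As the chains differ in length, the ratio itself is not a ratio of molecules of equal detection.

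The other type IV chains were near the floor. Col4a3 and Col4a4, which with Col4a5 form the network of the kidney glomerulus, had at most 2 and 3 counts in any mouse. Col4a5 ranged from 0 to 12 counts and Col4a6 from 0 to 6 counts, and none of the 4 passed the filter. Summed over the 6 type IV genes, the level was 7.77 ± 1.65 CPM in sham mice, 20.1 ± 5.06 CPM in vehicle mice and 14.7 ± 3.06 CPM in lactate mice (SD, n = 4). The lowest ischemic mouse had 11.7 CPM and the highest sham mouse 9.91 CPM. The plot of summed levels by class shows that no other class separated the sham mice from all ischemic mice.

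**Figure D2:**
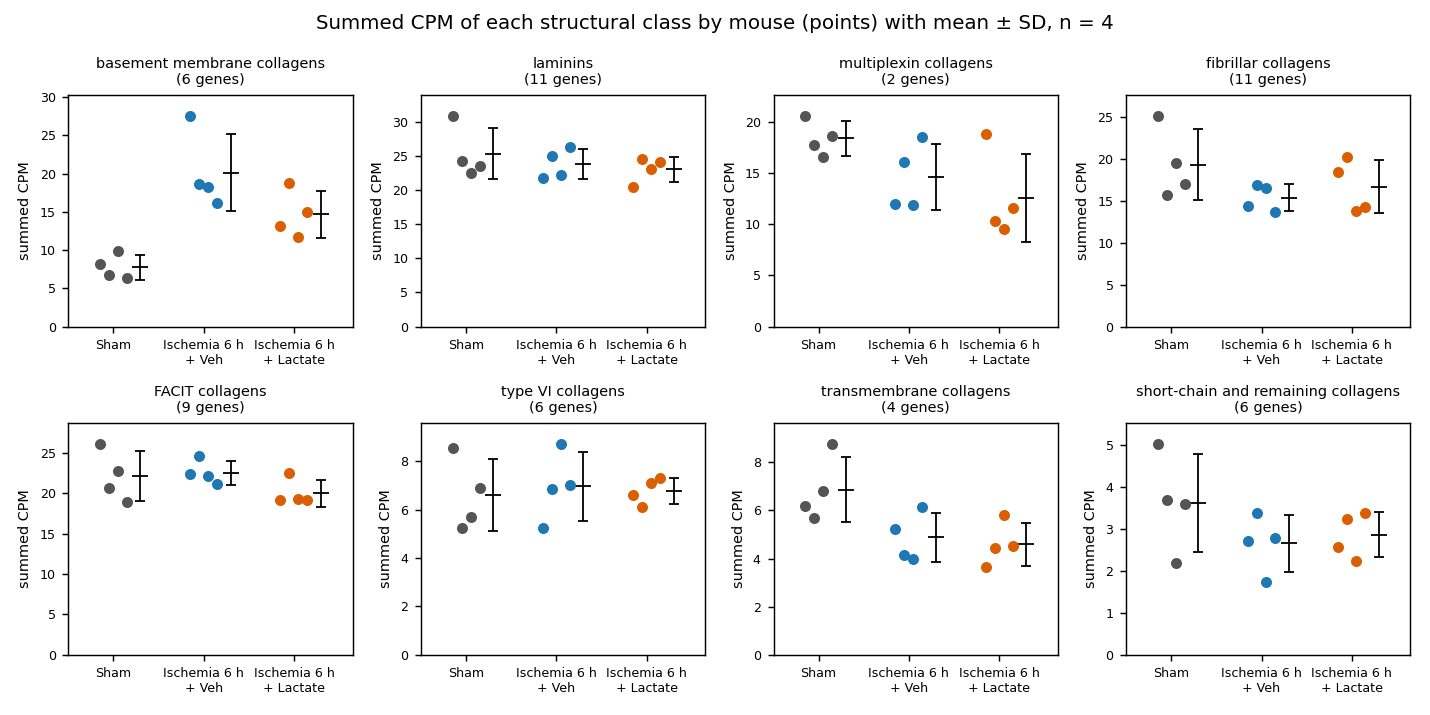
Summed CPM of the genes of each of 8 structural classes (vertical axes, from 0) in each mouse (points), with the group mean ± SD (n = 4). The basement membrane (type IV) class separates the sham mice, at most 9.91 CPM, from the ischemic mice, at least 11.7 CPM, while the laminin sums, 20.4 to 30.9 CPM, overlap in all 3 groups.

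In lactate-treated ischemic mice, measured against the same sham mice, Col4a1 rose again, by 1.11 on the log2 scale (SE 0.25, edgeR adjusted p = 0.0120), and Col3a1, a fibrillar collagen, rose as well. Col15a1, a collagen of the outer basement membrane zone, fell. Leaving out each mouse in turn gave 0.96 to 1.26 for Col4a1, with a call in 8 of 8 fits. Col4a2 was 0.92 higher on the log2 scale (SE 0.31, adjusted p = 0.0668). Without sham mouse 3 it was called in edgeR, at 1.30 and an adjusted p of 0.0173, and a fit with the mouse number as a replicate block also called it, at 0.97 and 0.0472.

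In this comparison 2 of the 30 genes tested were called higher, 6.67%, where 8.76% of all 17262 genes tested were, and 1 was called lower, 3.33%, where 3.55% of all were. At the study's limits 4 genes were higher (Col4a1, Col4a2, Col3a1 and the laminin gene Lamb3), 13.3% against 11.9% of all genes, and 2 were lower (Col15a1 and Col11a1), 6.67% against 5.65% of all genes. Thus in neither direction did the genes differ much from the share over all genes. Their median log2 fold change was -0.15, where that of all genes tested was -0.03, and 12 were higher and 18 lower. Relative to either median, Col4a1 and Col3a1 lay at the upper end of the 30 values and Col11a1 and Col5a1 at the lower end. All these genes, and those of the lists and markers below, carry an Ensembl identifier. The shares over all genes also include loci without one. Of the 13167 tested genes with an Ensembl identifier, 664 were called higher and 542 lower, and their median was -0.06.

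Col3a1 encodes the homotrimeric type III collagen of vessel walls and other extensible tissue, at chr1:45311538-45349706 (GRCm38, forward strand). Sham mice 1 to 4 had 0.791, 1.56, 1.22 and 1.36 CPM and vehicle mice 1.22, 2.07, 0.622 and 2.93 CPM. Lactate mice 1 to 4 had 5.54, 2.63, 2.24 and 2.32 CPM. All 4 lactate mice lay above all sham mice, with lactate mouse 1 far above the other 3, and vehicle mice overlapped with both groups. The log2 fold change in lactate against sham mice was 1.37 (SE 0.38, edgeR adjusted p = 0.0318). The call was lost in 5 of 15 alternatives, all with the same direction, among them the fits without lactate mouse 1 (0.97, adjusted p = 0.0914), without sham mouse 1 (1.20, 0.0854), without sham mouse 3 (1.35, 0.0787) and without sham mouse 4 (1.42, 0.0652). In vehicle against sham mice the value was 0.46 (SE 0.45, adjusted p = 0.716).

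Col15a1 encodes type XV collagen, whose noncollagenous end releases a fragment known as restin, and which binds basement membranes to the tissue around them. It lies at chr4:47208161-47313167 (forward strand). Its level was 17.9, 14.6, 14.7 and 16.8 CPM in sham mice and 9.18, 11.9, 9.46 and 15.3 CPM in vehicle mice. In lactate mice it was 14.6, 7.66, 7.38 and 8.81 CPM. Lactate mice 2 to 4 and 3 of the 4 vehicle mice lay below all sham mice, while lactate mouse 1 and vehicle mouse 4 reached the lower sham mice. The log2 fold change in lactate against sham mice was -0.70 (SE 0.22, edgeR adjusted p = 0.0493), close to the threshold. The call was lost in 11 of 15 alternatives, at adjusted p values up to 0.131, 7 of which left out 1 mouse (each sham mouse, and lactate mouse 2, 3 or 4). Without lactate mouse 1 the value was -0.97 with an adjusted p of 0.00624. In vehicle against sham mice it was -0.45 (SE 0.20, adjusted p = 0.349), at an unadjusted p of 0.0455. Col18a1, the related type XVIII chain and the precursor of endostatin, lay at 1.85 to 4.19 CPM over all mice, with log2 fold changes of 0.42 and 0.32 against sham (adjusted p = 0.586 and 0.545).

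**Figure D3:**
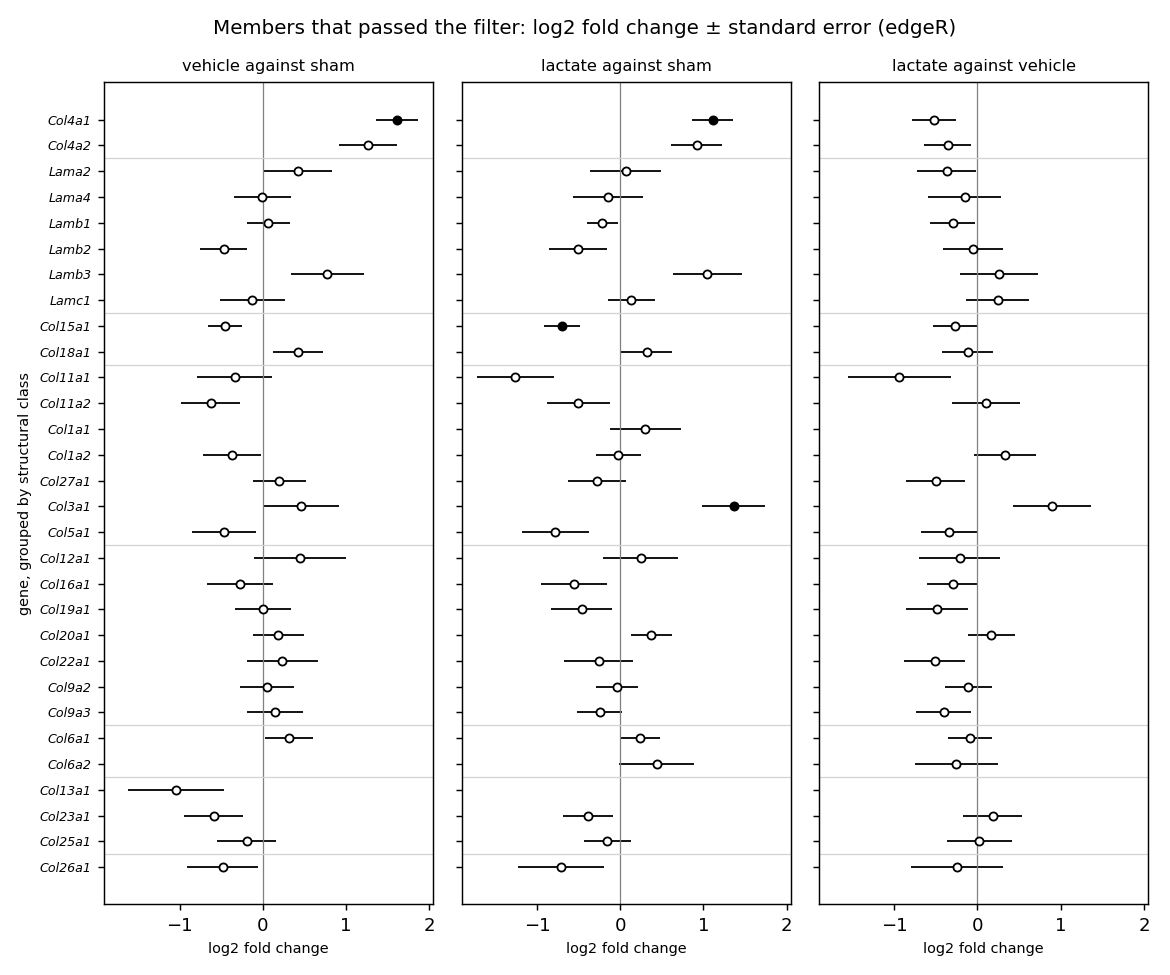
Log2 fold change (horizontal axes) with its standard error for the genes that passed the filter on low counts and are reported singly, by comparison, with genes grouped by structural class between the grey lines. Filled points mark an adjusted p under 0.05 in edgeR. They are Col4a1 in both comparisons with sham mice, and Col3a1 and Col15a1 in lactate against sham mice, and the third panel holds no filled point.

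Lactate-treated mice were then compared directly with vehicle-treated mice, which is the comparison that bears on lactate alone. Of the 29 genes tested 0 were called higher and 0 lower by edgeR, where 0% and 0.00574% of all 17419 genes tested were, that is 0 and 1 gene. At the study's limits 0 genes were higher and 0 lower, where 3.76% and 2.47% of all genes were. None of the 29 genes reached an unadjusted p under 0.05, and DESeq2 called none either. The median log2 fold change was -0.21, with 8 genes higher and 21 lower, where that of all genes tested was -0.03.

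Col4a1 was lower in lactate than in vehicle mice by 0.52 on the log2 scale (log2 fold change -0.52, SE 0.27, edgeR adjusted p = 0.591), and Col4a2 gave -0.36 (SE 0.28, adjusted p = 0.740). Both groups overlapped for both chains. Col3a1 gave 0.89 (SE 0.47, adjusted p = 0.604), Col15a1 gave -0.27 (SE 0.27, adjusted p = 0.801) and Col11a1 gave -0.94 (SE 0.62, adjusted p = 0.687). Thus the call of Col3a1 or Col15a1 against sham in 1 ischemic group and not in the other was not matched by a difference between the ischemic groups that passed the test. These standard errors leave room for differences of the size seen against sham, and the data do not show that the groups were alike.

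Of the 11 fibrillar collagen genes, 6 or 7 passed the filter. Col1a1 and Col1a2 encode the chains of type I collagen, the main collagen of skin, bone and meninges, in a fixed proportion. Col1a1 measured 0.659, 1.00, 1.22 and 0.863 CPM in sham mice, 0.843, 0.907, 0.498 and 0.293 CPM in vehicle mice and 1.62, 1.56, 0.923 and 0.464 CPM in lactate mice. Col1a2 measured 4.22, 2.67, 3.80 and 3.95 CPM in sham mice, 1.12, 3.50, 3.24 and 3.37 CPM in vehicle mice and 2.98, 4.43, 4.35 and 2.32 CPM in lactate mice. The groups overlapped for both chains except that Col1a2 was lowest in vehicle mouse 1. The mean log2 ratio of Col1a1 to Col1a2 differed by -0.11 in vehicle and by 0.24 in lactate mice against sham, and by 0.35 between the ischemic groups (two-sided exact permutation tests, p = 0.914, 0.629 and 0.686, each 0.914 adjusted over the same 6 tests).

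Among minor fibrillar chains, Col11a2, of the type XI collagen that sets fibril thickness in cartilage, ranged from 6.86, 5.24, 4.07 and 2.47 CPM in sham mice to 3.09, 3.89, 3.24 and 1.47 CPM in vehicle mice and 2.70, 5.87, 2.51 and 1.74 CPM in lactate mice. It overlapped in all groups. Its partner chain Col11a1 had 3.30, 1.89, 1.90 and 3.08 CPM in sham mice, 2.34, 1.17, 3.61 and 0.587 CPM in vehicle mice and 1.49, 0.479, 0.264 and 1.86 CPM in lactate mice. All lactate mice lay below all sham mice, the 4th lactate mouse narrowly, and the log2 fold change was -1.26 (SE 0.47, edgeR adjusted p = 0.0972). Without lactate mouse 4 it was -1.73 and passed the test (edgeR adjusted p = 0.0428), as it did with the replicate block (-1.37, adjusted p = 0.0331). Col5a1 and Col27a1 gave -0.78 (SE 0.40, adjusted p = 0.237) and -0.28 (SE 0.35, adjusted p = 0.661) in the same comparison. Col2a1, the cartilage collagen, was at 0 in 10 mice, with 5 counts in vehicle mouse 1 and 4 in lactate mouse 1, and Col24a1, Col5a2 and Col5a3 had group means of 0.157 to 0.969 CPM. The class summed to 19.4 ± 4.19 CPM in sham, 15.4 ± 1.61 CPM in vehicle and 16.7 ± 3.16 CPM in lactate mice (SD, n = 4).

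With all mice the laminin genes gave no call in any comparison, and their sum was 25.3 ± 3.76 CPM in sham, 23.8 ± 2.17 CPM in vehicle and 23.0 ± 1.85 CPM in lactate mice (SD, n = 4). Lamb1 encodes the beta 1 chain, part of the laminins of brain vessels and astrocytes, and lies at chr12:31265234-31329644 (forward strand). It measured 6.73, 5.46, 5.57 and 5.92 CPM in sham mice, 3.37, 6.22, 7.22 and 7.63 CPM in vehicle mice and 4.46, 5.27, 4.88 and 5.33 CPM in lactate mice. The lactate mice lay just below all sham mice, yet the log2 fold change was -0.21 (SE 0.19, edgeR adjusted p = 0.514), and vehicle mice spanned both groups.

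Lamb3, the beta 3 chain of the laminin that anchors epithelia, had 0.923, 1.23, 1.22 and 2.10 CPM in sham mice, 1.12, 2.20, 1.87 and 4.25 CPM in vehicle mice and 1.08, 2.28, 4.22 and 3.59 CPM in lactate mice. Lactate mouse 1 lay among the sham mice and the other 3 above them. The log2 fold change was 0.78 (SE 0.44, adjusted p = 0.465) in vehicle and 1.05 (SE 0.41, adjusted p = 0.119) in lactate mice against sham. Without lactate mouse 1 the latter was 1.31 and passed the test (edgeR adjusted p = 0.0437). The chains of the vascular laminins, Lama4 (alpha 4), Lamb1 and Lamc1 (gamma 1), gave log2 fold changes between -0.21 and 0.13 against sham in either ischemic group. Lama2, whose chain is made by pericytes and astrocytes among other cells, gave 0.42 and 0.07, and Lamb2 (beta 2) gave -0.47 and -0.51 (adjusted p = 0.505 and 0.380). The endothelial alpha 5 chain, Lama5, averaged 0.758, 0.505 and 0.566 CPM in sham, vehicle and lactate mice, and Lama1, Lama3 and Lamc3 were also below the filter.

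Of the fibril-associated (FACIT) collagens, which sit on the surface of fibrils, 7 of 9 were tested and 0 were called in any comparison. Their sums were 22.1 ± 3.08, 22.6 ± 1.46 and 20.02 ± 1.66 CPM in sham, vehicle and lactate mice (SD, n = 4). Col9a2, a chain of type IX collagen, had 8.04, 6.02, 3.26 and 6.54 CPM in sham mice, 8.24, 3.24, 7.10 and 5.43 CPM in vehicle mice and 6.22, 5.51, 5.93 and 5.10 CPM in lactate mice, with full overlap. Among the 7 tested, the largest change against sham in lactate mice was that of Col16a1, -0.55 (SE 0.39, edgeR adjusted p = 0.396).

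Type VI collagen forms beaded filaments next to basement membranes. Its chain gene Col6a1 had 5.14, 2.67, 3.40 and 3.45 CPM in sham mice, 4.12, 4.01, 6.47 and 3.08 CPM in vehicle mice and 4.33, 3.83, 3.96 and 4.75 CPM in lactate mice, again with overlap, and log2 fold changes of 0.32 and 0.24 against sham (edgeR adjusted p = 0.692 and 0.567). Col6a2 passed the filter in both comparisons of lactate mice and Col6a3 to Col6a6 in none. Col6a4 was singled out after its values had been seen. It had 10, 6, 6 and 14 counts in sham mice, 1, 0, 1 and 1 in vehicle mice and 8, 0, 6 and 7 in lactate mice. Sham and vehicle mice did not overlap, and lactate mice spanned both. Pooled over mice, sham exceeded vehicle mice 12.5-fold per read sequenced (36 against 3 counts, exact 95% interval 3.94 to 63.2, for counting error only). A fit with no filter on low counts called it lower in vehicle than in sham mice (edgeR adjusted p = 0.0179). As Col6a4 was chosen because these groups did not overlap, neither the interval nor the call is independent support. In lactate against vehicle mice the same fit gave an unadjusted p of 0.0139 and an adjusted p of 0.548, with Col6a4 higher in lactate mice and within the study's limits.

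The transmembrane collagens are cell-surface proteins, several of them made by neurons. Col25a1, whose product is found in amyloid plaques, had 2.90, 2.90, 3.40 and 4.32 CPM in sham mice, 2.81, 2.33, 1.49 and 4.99 CPM in vehicle mice and 2.16, 2.28, 4.35 and 3.13 CPM in lactate mice, with overlap. Col23a1 gave -0.59 and -0.39 on the log2 scale against sham (edgeR adjusted p = 0.499 and 0.439). Col13a1, a collagen of neuromuscular synapses and other adhesion sites, had 0.791, 1.23, 1.63 and 2.59 CPM in sham mice, 1.03, 1.04, 0.747 and 0 CPM in vehicle mice and 0, 0.719, 0.132 and 0.116 CPM in lactate mice. All lactate mice lay below all sham mice, at 0, 6, 1 and 1 counts. In vehicle against sham mice it gave -1.04 (SE 0.58, adjusted p = 0.463). In lactate against sham mice it did not pass the filter and was singled out because these groups did not overlap. The pooled ratio of sham to lactate mice was 6.24 (50 against 8 counts, exact 95% interval 2.93 to 15.2, for counting error only). The fit with no filter called it lower (edgeR adjusted p = 0.0175). Given that choice, neither the interval nor the call is independent support.

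The short-chain and remaining collagens, Col7a1, Col8a1, Col8a2, Col10a1, Col26a1 and Col28a1, summed to 3.61 ± 1.16, 2.65 ± 0.673 and 2.85 ± 0.535 CPM in sham, vehicle and lactate mice (SD, n = 4). Col26a1 was the 1 tested, with 3.43, 1.78, 0.951 and 2.22 CPM in sham mice, 2.25, 1.55, 0.996 and 0.880 CPM in vehicle mice and 1.62, 1.20, 0.132 and 1.97 CPM in lactate mice. Its groups overlapped, and its log2 fold changes were -0.48 and -0.71 against sham (edgeR adjusted p = 0.677 and 0.410).

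Collagen chains are hydroxylated, glycosylated and chaperoned in the endoplasmic reticulum before they fold. Of 34 genes of collagen biosynthesis and crosslinking, 24 were tested. Against sham, 0 were called in vehicle mice, while in lactate mice 4 were called higher and 1 lower, and 0 were called between the ischemic groups. Over all genes tested, 8.76% were called higher and 3.55% lower in lactate against sham mice, and the 1 gene called lower here is near that share. Among tested genes with an Ensembl identifier, 664 of 13167 were called higher and 542 lower. The median log2 fold change of the list was 0.20 in vehicle and 0.11 in lactate mice against sham, where that of all genes tested was 0.00 and -0.03. The 4 were Serpinh1, the collagen-specific chaperone HSP47, the prolyl 4-hydroxylase alpha subunits P4ha1 and P4ha2, and their shared beta subunit P4hb, which as protein disulfide isomerase also serves other proteins. A further alpha subunit gene, P4ha3, was below the filter. The gene called lower was P3h3, of a prolyl 3-hydroxylase family enzyme (log2 fold change -1.04, SE 0.31, edgeR adjusted p = 0.0406).

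Serpinh1 had 17.9, 17.1, 18.2 and 18.0 CPM in sham mice and 11.6, 26.2, 43.6 and 30.2 CPM in vehicle mice. It had 50.3, 73.2, 69.2 and 53.3 CPM in lactate mice, all above every other mouse. In lactate against sham mice it rose by 1.82 on the log2 scale (SE 0.14, adjusted p = 4.02e-06). Against vehicle mice the value was 1.13 (SE 0.31), with an unadjusted edgeR p of 0.00307 and an adjusted p of 0.466. At the study's limits 1 gene of the list was higher and 1 lower in lactate than in vehicle mice. P4ha1 rose by 0.81 (SE 0.17, adjusted p = 0.00821), P4ha2 by 1.13 (SE 0.25, adjusted p = 0.0118) and P4hb by 0.77 (SE 0.13, adjusted p = 0.00305) against sham. These 3 hydroxylase subunits were also higher in vehicle than in sham mice, by 0.72, 0.80 and 0.39 on the log2 scale, without passing (adjusted p = 0.374, 0.309 and 0.353).

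**Figure D4:**
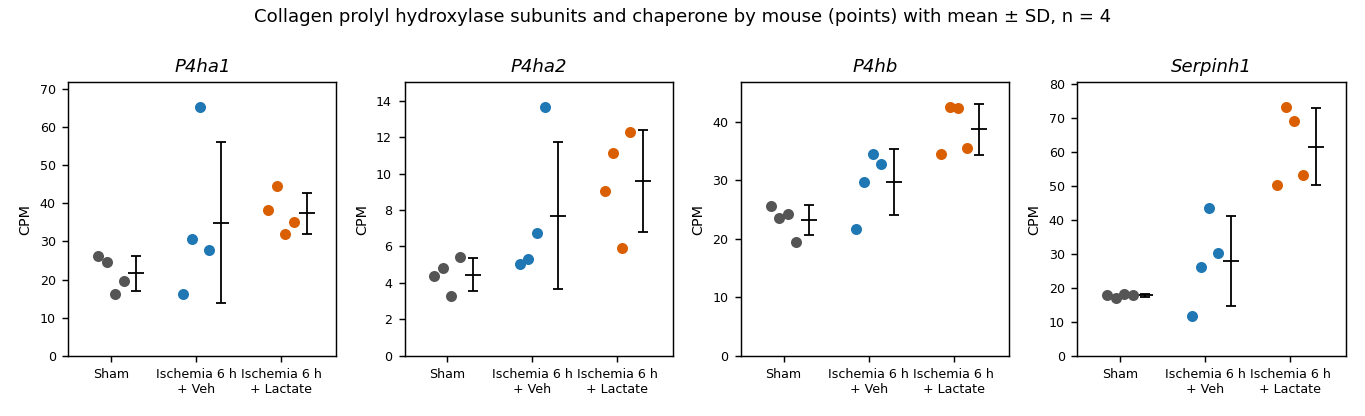
CPM (vertical axes, from 0) of P4ha1, P4ha2, P4hb and Serpinh1 in each mouse (points) of the 3 groups, with the mean ± SD (n = 4). The 4 lactate mice have 50.3 to 73.2 CPM of Serpinh1, above the highest vehicle mouse at 43.6 CPM and all sham mice at 17.1 to 18.2 CPM.

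Of 20 other basement membrane proteins, such as nidogens, perlecan and agrin, 15 were tested in vehicle and 14 in lactate mice against sham, with 0 and 1 called. The latter was Agrn, encoding agrin, which was lower (-0.58, SE 0.17, edgeR adjusted p = 0.0378). Of 20 collagen and laminin receptors, 15 were tested. Sdc4, the adhesion coreceptor syndecan 4, rose in vehicle mice (1.14, SE 0.24, adjusted p = 0.0322) and in lactate mice (1.63, SE 0.17, adjusted p = 6.39e-05), and Itgb4, the laminin-binding integrin beta 4, fell in lactate mice (-0.92, SE 0.20, adjusted p = 0.0107). Sdc4 was the 1 receptor gene of 15 called in vehicle mice, where 1.29% of all genes were called higher and 0.182% lower. Of 19 genes of TGF-beta signaling tested, a pathway that drives collagen transcription in many tissues, 0 were called in vehicle mice. In lactate mice 3 rose, the target Ctgf (0.53, adjusted p = 0.0404), the transducer Smad3 (0.77, adjusted p = 0.0154) and the feedback inhibitor Skil (0.72, adjusted p = 0.0287), and the latent TGF-beta binding protein gene Ltbp4 fell (-0.88, adjusted p = 0.0100). Between the ischemic groups 0 genes of these 3 lists were called. With 8.76% of all genes called higher and 3.55% lower in lactate against sham mice, the TGF-beta genes called higher were 3 of 19, and each list had 1 gene called lower. Among genes with an Ensembl identifier, as all listed genes have, 664 of 13167 were called higher and 542 lower. Their medians in that comparison were 0.04, 0.19 and 0.03 on the log2 scale. All lists were chosen with earlier results of these samples known and are not independent evidence of a direction.

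Markers of the cells that make these proteins were read from the same mice. The 11 endothelial markers summed to 219 to 248 CPM in sham mice, 281 to 336 CPM in vehicle mice and 341 to 389 CPM in lactate mice. The rise of this sum rested largely on Slc2a1 and Ly6c1. Without them, a choice made after their values had been seen, the other 9 summed to 104 to 125, 93.0 to 123 and 94.0 to 118 CPM, with overlap of all groups. As both rose in lactate mice, this overlap follows in part from the choice and is not evidence on endothelial content. In lactate against sham mice 3 of the 11 rose (Slc2a1, Ly6c1 and Esam) and 1 fell (Slco1a4), where 8.76% and 3.55% of all genes did, and in vehicle mice only Slc2a1, the glucose transporter of the barrier, was called (log2 fold change 1.33, edgeR adjusted p = 0.00182). Cldn5 ranged from 20.6 to 27.4 CPM in sham, 13.6 to 22.3 CPM in vehicle and 15.03 to 23.0 CPM in lactate mice. Pecam1 ranged from 11.8 to 16.4, 12.9 to 22.1 and 13.6 to 24.1 CPM in the same order. No endothelial marker was at 0 in more than 1 mouse. The 10 mural cell markers summed to 71.0 to 89.1, 55.6 to 82.2 and 61.3 to 67.5 CPM with 0 called. The 12 fibroblast markers summed to 102 to 116, 110 to 165 and 114 to 166 CPM, where in lactate mice Mgp and Aldh1a2 rose and Slc47a1 fell, that is 2 and 1 of the 10 tested. The 5 blood markers, mostly hemoglobin chains, summed to 560 to 633 CPM in sham mice, 333 to 500.4 CPM in vehicle mice and 375 to 499 CPM in lactate mice, all ischemic mice below all sham mice, and 4 of the 5 fell in lactate mice. The 6 microglial markers summed to 232 to 269.9, 169 to 229.8 and 279 to 303 CPM, with P2ry12 and Cx3cr1 lower in vehicle mice, and P2ry12 lower and C1qa higher in lactate mice. Of the 10 choroid plexus markers 1 was tested, Ttr. It was at 0.815 to 2.90 CPM in sham and 7.78 to 16.2 CPM in lactate mice. It rose in the latter (log2 fold change 3.25, SE 0.36, adjusted p = 9.50e-05). Vehicle mice 1 to 4 had 13.8, 1817, 11.95 and 2.64 CPM of Ttr. The other markers were below the filter. Their group means were higher in lactate than sham mice for Clic6 (0.471 against 0.153 CPM), Kl (0.351 against 0.124), Kcne2, Aqp1, Folr1 and Slc4a5. They were lower for Sostdc1 (0.189 against 0.257 CPM) and F5 (0.062 against 0.123 CPM). The defining marker Otx2 was at 0 in all sham and lactate mice. The 6 astrocyte markers summed to 560.5 to 841, 644 to 790.2 and 665 to 822 CPM, with overlap, and 1 rose in lactate against sham mice, Gjb6 of the gap junction protein connexin 30 (log2 fold change 0.91, SE 0.16, adjusted p = 0.00287). The 8 neuronal markers summed to 4517 to 4835, 3734 to 5596 and 3781 to 4459 CPM, all lactate mice below all sham mice, with 0 called. The 6 oligodendrocyte markers summed to 7064 to 11296, 5573 to 10459 and 8859 to 9905 CPM, and in lactate against sham mice the myelin genes Cnp and Mog fell (-0.53 and -0.60, adjusted p = 0.0131 and 0.0125). None of these 3 lists had a call in vehicle mice. The part of any of these cell types in the results above was not tested.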

How the data were processed

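Brain RNA of 12 mice, 4 in each of 3 groups, was analysed, with groups and mouse numbers from the labels. The authors discarded ribosomal, short and low-quality reads, selected full-length reads without chimeras by their primers, aligned these with minimap2, made consensus isoforms with pinfish and annotated the isoforms with gffcompare. The submitters' processing notes name GRCm38 and DESeq 1.10.1. How reads were counted per gene is not given in the sources used here. The authors deposited raw counts per gene and also CPM values, each count divided by the total of its mouse. Their table also holds their own tests, which were not used. Reads carry no molecular identifiers, so floors and intervals cover counting error only, and short or incomplete cDNA removed by the authors' filters is not seen for these long transcripts.

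The table holds 31208 genes, 4 further lines name no gene and were dropped, and 0 columns of single mice were left unused. Counts entered the quasi-likelihood test of edgeR 4.0.16 in R 4.3.3, with TMM factors and fits of the 2 groups compared. A gene needed 1 CPM or above in 4 or more of those 8 mice, and p-values were adjusted over all genes tested by Benjamini-Hochberg. Called means an adjusted p under 0.05 at any fold. The standard error (SE) shown with an edgeR fold change was derived from the test. It is the absolute log2 fold change divided by the square root of the F statistic. Chain ratios used counts plus 0.5 and two-sided exact permutation tests (scipy 1.17.1). Gene positions are those of GENCODE mouse release 21. Members and lists were chosen with earlier results of these data known. Values in every mouse are given for members called in any comparison, for the chains of the ratios and for the member with the highest mean in each class, and Col11a1, Lamb3, Col6a4, Col13a1 and Col2a1 were added after their values had been seen. Listed genes are named where called. The values of 1 gene are not reported here, and it stays in counts and sums. Replicates are different mice, and the labels do not say whether a number marks a shared day. The scripts were tested on simulated data. Alternatives were DESeq2 1.42.0, other size factors and filters, 1 fit of all 12 mice, a replicate block, Ensembl genes only, the study's limits, and leaving out each mouse.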

Additional observations from a re-analysis of the deposited data

Results flagged for a closer look

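In each group of 4 mice, the highest or lowest mouse was compared with the others by Dixon's test, which flags about 1 in 20 groups by chance. Of 90 groups, 30 genes in 3 groups each, 6 contained a mouse that stood apart. Col4a2 had 4.75 CPM in sham mouse 3, where the other sham mice had 1.78 to 2.24 CPM. Col3a1 had 5.54 CPM in lactate mouse 1, against 2.24 to 2.63 CPM. Col1a2 had 1.12 CPM in vehicle mouse 1, against 3.24 to 3.50 CPM, and Col5a1 had 0.923 CPM in lactate mouse 3, against 2.03 to 2.20 CPM. Col6a2 had 1.19 CPM in sham mouse 1, against 0.669 to 0.740 CPM. Lamb2 had 2.10 CPM in sham mouse 4, against 3.80 to 4.01 CPM. The 6 values came from 6 different mice.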

How the results depend on the processing

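Col4a1 was called against sham under all 15 alternatives in both ischemic groups, and 0 of the 55 genes were called between the ischemic groups under any. The other calls among the 55 genes moved with the settings, and the cause was not tested. Alternatives were not compared for genes of the other lists and markers. In vehicle mice against sham, 2 genes were called higher with DESeq2 and at the study's limits, and 1 was called lower with no filter (Col6a4). Leaving out each mouse gave 1 to 1 higher and 0 to 0 lower. In lactate mice against sham, 1 gene was called higher in the fit of all 12 mice and 4 at the study's limits, and 1 to 2 when a mouse was left out (Col4a1 and Lamb3 without lactate mouse 1). For genes called lower, there were 0 with RLE size factors, filterByExpr, all 12 mice or Ensembl genes only, 2 with no filter (Col13a1 and Col15a1) and at the study's limits, 2 with the replicate block (Col15a1 and Col11a1, the latter at -1.37 with an edgeR adjusted p of 0.0331), and 0 to 1 when a mouse was left out (Col15a1 without lactate mouse 1, Col11a1 without lactate mouse 4). Same-numbered mice correlated at -0.212 to 0.204. With 4 mice per group and no reference beside them, these values cannot decide whether a number marks a shared day. The replicate block also gave 3 genes higher in lactate mice against sham and changed no count in the other comparisons. With a mouse left out, the log2 ratio of Col4a1 to Col4a2 in lactate against sham mice ranged from -0.20 to 0.30, and that of Col1a1 to Col1a2 from -0.65 to 0.30 in vehicle and from -0.033 to 0.42 in lactate mice against sham, and from -0.058 to 0.89 between ischemic groups. Lamb3 ranged from -0.0048 to 0.69 in lactate against vehicle mice. At these depths 24 of the 55 genes passed the filter in no comparison.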
